A study of Mus musculus with 9 samples.

Results

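The transcripts of the 7 subunits of AMP-activated protein kinase (AMPK) were followed in mouse hindlimb skeletal muscle over the first postnatal weeks. The subunit genes were taken by symbol (Prkaa1, Prkaa2, Prkab1, Prkab2, Prkag1, Prkag2 and Prkag3), and all 7 were present among the 22180 genes measured. RNA was compared at postnatal day 2 (P2), day 7 (P7) and day 14 (P14), with 3 arrays labelled as replicates at each age. The strain is labelled only as mixed at every age, and the labels name no allele, no agent, no sex and no pooling of animals. Values are log2 RMA intensities from the deposited table, and a difference of 1 is a doubling.

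AMPK is the energy sensor of the cell, a kinase that is switched on when AMP and ADP rise relative to ATP. It is a heterotrimer of a catalytic alpha subunit, a beta subunit that holds the complex together and binds glycogen, and a gamma subunit that binds the adenine nucleotides. Each kind is encoded by several genes, and adult fast muscle of mice is known for a complex of the products of Prkaa2, Prkab2 and Prkag3, the last of which is largely restricted to skeletal muscle.

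The 9 arrays had medians of 3.29 to 3.36, and the correlation across genes between replicates was lowest at P2 (0.953) and highest at P14 (0.984). All 15 myofibre markers, among them Acta1, Ckm and Ttn, had means above the background level of 3.22, which is the 95th percentile of 1390 olfactory and vomeronasal receptor genes, as did 2 of 4 heart markers (Myh6 and Tnni3) and 1 of 3 liver markers (Apoa1). The means over all 9 arrays of the heart markers Nppa and Myl7 and the liver markers Alb and Ttr did not reach it. Each subunit gene was read by 1 probe set with a single symbol, and all 7 were above that level on every array. The lowest value was that of Prkag2 on P14 replicate 1, 0.76 above that level. Levels of different subunits were not set against each other, since each probe set has its own brightness.

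Among the catalytic subunits, Prkaa2 increased with age and Prkaa1 had no called change. Prkaa2, which encodes the alpha2 kinase, had values of 7.08, 7.28 and 7.57 at P2, of 8.05, 7.98 and 8.24 at P7, and of 9.05, 9.06 and 9.02 at P14. The 3 ages did not overlap at any step, and the P14 arrays lay closest together. Prkaa1, which encodes the alpha1 kinase found in most tissues, had values of 6.93, 6.43 and 6.84 at P2, of 6.65, 6.44 and 6.55 at P7, and of 6.78, 6.97 and 7.14 at P14. Its P14 arrays were all above its P7 arrays, but the P2 arrays overlapped both of the later ages.

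Of the beta subunits, Prkab2 increased and Prkab1 did not. Prkab2, which encodes the beta2 scaffold prominent in muscle, had values of 5.93, 5.63 and 6.14 at P2, of 6.28, 6.32 and 6.37 at P7, and of 7.15, 7.37 and 7.22 at P14. Each age lay wholly above the one before it, with the wider gap between P7 and P14. Prkab1, which encodes the beta1 scaffold prominent in liver, had values of 5.91, 5.21 and 5.78 at P2, of 5.27, 4.80 and 5.22 at P7, and of 5.11, 5.54 and 5.12 at P14. The ages of Prkab1 overlapped in every pair, with P2 replicates 1 and 3 the highest arrays.

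Of the gamma subunits, Prkag3 and Prkag1 were higher at P14 than at P2 and Prkag2 had no called change. Prkag3, which encodes the gamma3 subunit of fast skeletal muscle, had values of 4.70, 4.52 and 5.33 at P2, of 6.03, 5.58 and 5.83 at P7, and of 6.81, 6.99 and 6.56 at P14. No age of Prkag3 overlapped another, and P2 replicate 3 stood above the other P2 arrays. Prkag1, which encodes the widely expressed gamma1 subunit, had values of 6.13, 5.81 and 6.26 at P2, of 6.18, 5.97 and 6.11 at P7, and of 6.76, 6.65 and 6.61 at P14. P2 and P7 overlapped for Prkag1, while all 3 P14 arrays were above both. Prkag2, which encodes the gamma2 subunit known from the heart, had values of 4.67, 4.14 and 4.59 at P2, of 4.05, 4.24 and 4.27 at P7, and of 3.98, 4.04 and 4.08 at P14. The P14 arrays of Prkag2 were all below the P2 arrays, but P7 overlapped both.

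**Figure D1:**
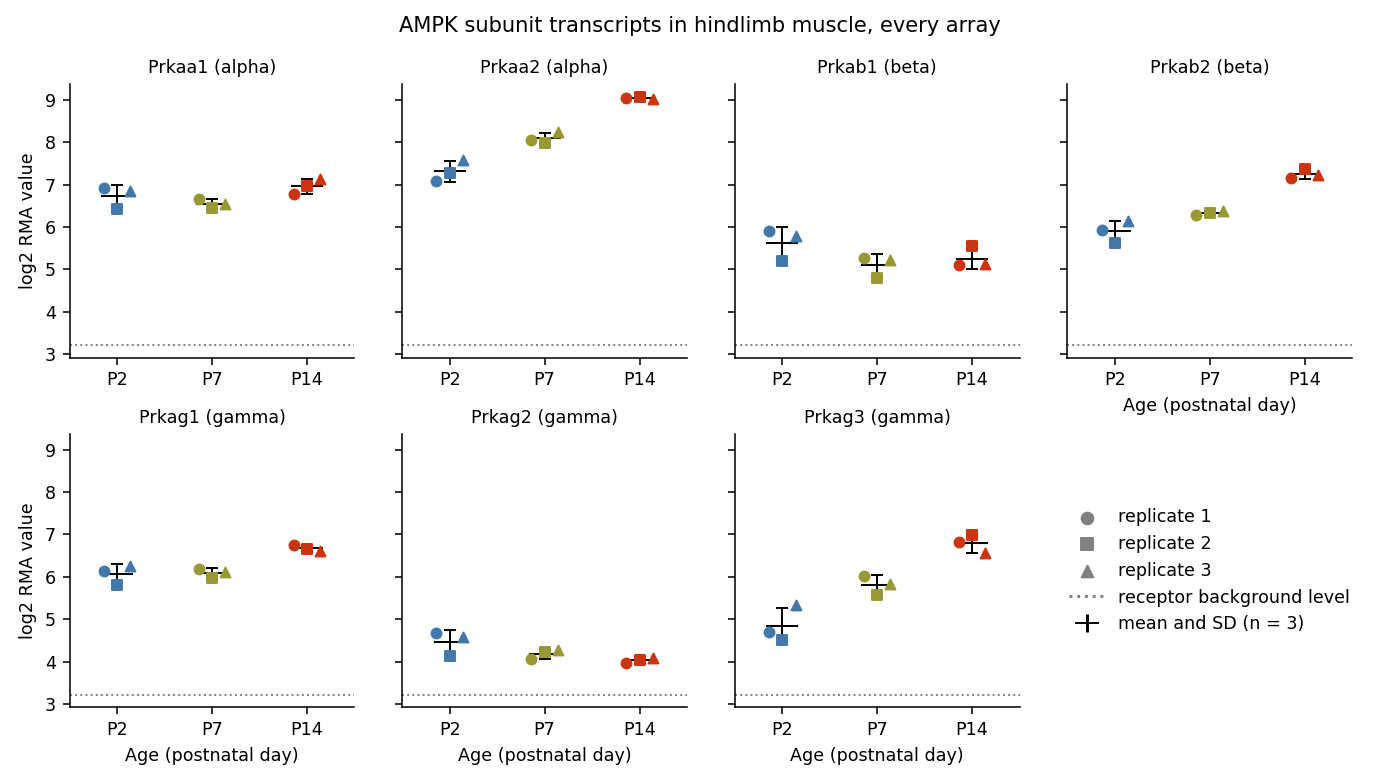
Log2 RMA value (vertical axis) of each AMPK subunit at P2, P7 and P14 (horizontal axis), with 1 point for each array (circle, square and triangle for replicates 1, 2 and 3), the mean and SD of 3 arrays in black, and the receptor background level of 3.22 dotted. Prkaa2, Prkab2 and Prkag3 step upward at both intervals, whereas the ages of Prkab1 overlap in every pair.

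The widest comparison, P14 versus P2, asked which subunits changed over the whole span. Of the 7 subunits 4 rose and 0 fell at an adjusted p under 0.05 by limma, beside 6.63% of all genes that rose, 4.40% that fell and 11.0% called in all. The ages did not overlap for 5 subunits, 4 higher and 1 lower, beside 16.2% of all genes higher, 12.6% lower and 28.7% in all. Prkag3 averaged 6.79 ± 0.22 at P14 and 4.85 ± 0.42 at P2 (SD, n = 3 each), 3.83-fold higher (log2 change 1.94 ± 0.22, SE; adjusted p = 5.86e-05). Prkaa2 averaged 9.05 ± 0.02 at P14 and 7.31 ± 0.25 at P2, 3.33-fold higher (1.74 ± 0.17, adjusted p = 1.79e-05). Prkab2 averaged 7.25 ± 0.11 at P14 and 5.90 ± 0.25 at P2, 2.55-fold higher (1.35 ± 0.17, adjusted p = 0.000168). By size of log2 change among the 22180 genes, Prkag3 ranked 55, Prkaa2 95 and Prkab2 207 from the top.

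The other rise was smaller. Prkag1 averaged 6.67 ± 0.08 at P14 and 6.07 ± 0.23 at P2, 1.52-fold higher (0.61 ± 0.17, adjusted p = 0.0334). The Prkag1 call ended without P2 replicate 1 (adjusted p = 0.0615), P2 replicate 2 (0.0875) or P14 replicates 1, 2 or 3 (0.127, 0.0987 and 0.0806), and also with quantile normalization (0.0508), cyclic loess (0.0528), all probe sets (0.0703) and a fit of only the 2 ages compared (0.0559). Prkag2 had a log2 change of -0.43 (95% interval -0.81 to -0.05) and was not called (adjusted p = 0.146), although without P2 replicate 2 it was -0.60 with an adjusted p of 0.0345. Prkab1 had a log2 change of -0.37 (95% interval -0.84 to 0.09) and Prkaa1 one of 0.23 (-0.16 to 0.62), neither called (adjusted p = 0.322 and 0.487).

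Divided by interval, all subunit calls were between P7 and P14. For P14 versus P7, 3 of the 7 subunits rose and 0 fell, beside 1.72% of all genes that rose, 0.703% that fell and 2.43% called in all. The arrays of the 2 ages did not overlap for 5 subunits, all higher at P14, beside 14.8% of all genes higher, 9.13% lower and 23.9% in all. Prkaa2 was 1.94-fold higher at P14 (log2 change 0.95 ± 0.17, SE, n = 3 each, adjusted p = 0.00826). Its call held in each of 9 fits that drop 1 array, but only narrowly without P14 replicate 2 (adjusted p = 0.0498). Prkab2 was 1.90-fold higher (0.92 ± 0.17, adjusted p = 0.0103), which was lost without P14 replicate 2 (adjusted p = 0.0745) or P14 replicate 3 (0.0501). Prkag3 was 1.97-fold higher (0.98 ± 0.22, adjusted p = 0.0312), a call that ended when any single P7 or P14 array was dropped (the highest adjusted p was 0.154, for P14 replicate 2) and with all probe sets (0.138). Prkag1 had a change of 0.59 ± 0.17 and Prkaa1 one of 0.42 ± 0.18, not called (adjusted p = 0.0936 and 0.299), and Prkab1 (0.16) and Prkag2 (-0.15) were smaller.

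For P7 versus P2, limma called 0 of the 7 subunits, beside 0.329% of all genes called (0.185% higher and 0.144% lower), and 4 of 7 had an unadjusted p under 0.05, beside 12.8% of all genes. Prkag3 had a log2 change of 0.96 ± 0.22 (adjusted p = 0.0773) and Prkaa2 one of 0.78 ± 0.17 (0.0685), both with P7 arrays wholly above the P2 arrays. That held for 3 subunits with 0 wholly below, beside 7.30% of all genes higher, 7.90% lower and 15.2% in all. Without P2 replicate 3 both passed, Prkag3 at 1.20 (adjusted p = 0.0183) and Prkaa2 at 0.91 (0.0383). Prkab2 had a change of 0.43 ± 0.17 (adjusted p = 0.319) and Prkab1 one of -0.53 ± 0.22 (0.323). Prkag1 was at 0.02, Prkaa1 at -0.19 and Prkag2 at -0.28.

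The share of the rise made in each week could be compared directly. The contrast of the later interval, of 7 days, minus the earlier one, of 5 days, called 0 of the 7 subunits by limma, with 0 at an unadjusted p under 0.05, beside 0.194% of all genes called (0.0361% higher and 0.158% lower). The difference was 0.01 for Prkag3 (95% interval -0.80 to 0.83), 0.17 for Prkaa2 (-0.47 to 0.81) and 0.50 for Prkab2 (-0.14 to 1.14). A call between P7 and P14 without one between P2 and P7 therefore does not show unequal change. The moderated F-test over the 3 ages called Prkaa2 (adjusted p = 6.91e-05), Prkag3 (0.00023) and Prkab2 (0.000535), beside 8.24% of all genes, with Prkag1 at 0.0512.

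**Figure D2:**
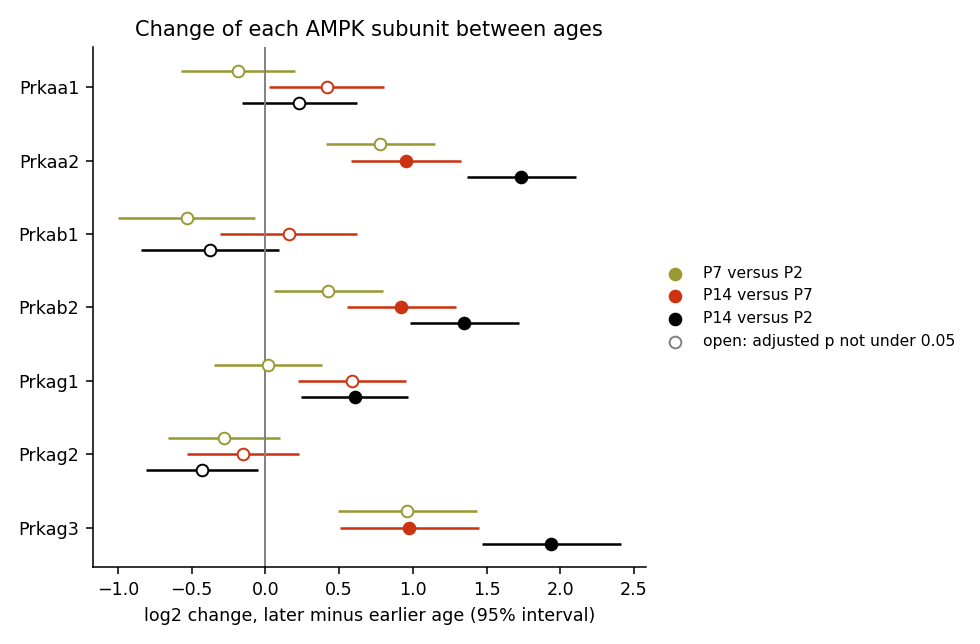
Log2 change of each AMPK subunit (horizontal axis, later minus earlier age) with its 95% interval from the limma fit, for P7 versus P2, P14 versus P7 and P14 versus P2, filled where the adjusted p was under 0.05. Prkaa2, Prkab2 and Prkag3 lie right of zero in all 3 comparisons and reach 1.74, 1.35 and 1.94 from P2 to P14.

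Unequal change of 2 subunits of a kind was tested on the difference of their log2 values within each array, which removes what the array shares. The size of such a difference has no meaning across probe sets, but its change with age does. Prkaa2 minus Prkaa1 was 0.15, 0.85 and 0.73 at P2, 1.40, 1.54 and 1.70 at P7, and 2.27, 2.09 and 1.89 at P14. The ages did not overlap, and Prkaa2 gained 2.84-fold on Prkaa1 from P2 to P14.

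Prkab2 minus Prkab1 was 0.02, 0.42 and 0.36 at P2, 1.01, 1.52 and 1.14 at P7, and 2.05, 1.83 and 2.10 at P14. Here too no age overlapped another, and the gain of Prkab2 on Prkab1 from P2 to P14 was 1.72 on the log2 scale. Prkag3 minus Prkag1 was -1.43, -1.29 and -0.93 at P2, -0.16, -0.38 and -0.28 at P7, and 0.05, 0.34 and -0.05 at P14. Prkag3 gained 1.33 on Prkag1 (2.52-fold), of which 0.94 lay between P2 and P7. Prkag2 minus Prkag1 averaged -1.60 ± 0.12 at P2, -1.90 ± 0.21 at P7 and -2.64 ± 0.13 at P14 (SD, n = 3), so that Prkag2 lost 1.04 against Prkag1. From P2 to P14 Prkag1 itself changed by 0.61 and Prkag2 by -0.43, the latter not called by limma. In an exact permutation test of the F statistic over all 1680 assignments of arrays to ages, each of the 4 pairs had p = 0.00357, the smallest value that this design can give, and 0.00357 after Benjamini-Hochberg adjustment over the 4 pairs. The pairs share Prkag1 in 2 cases and are not independent.

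**Figure D3:**
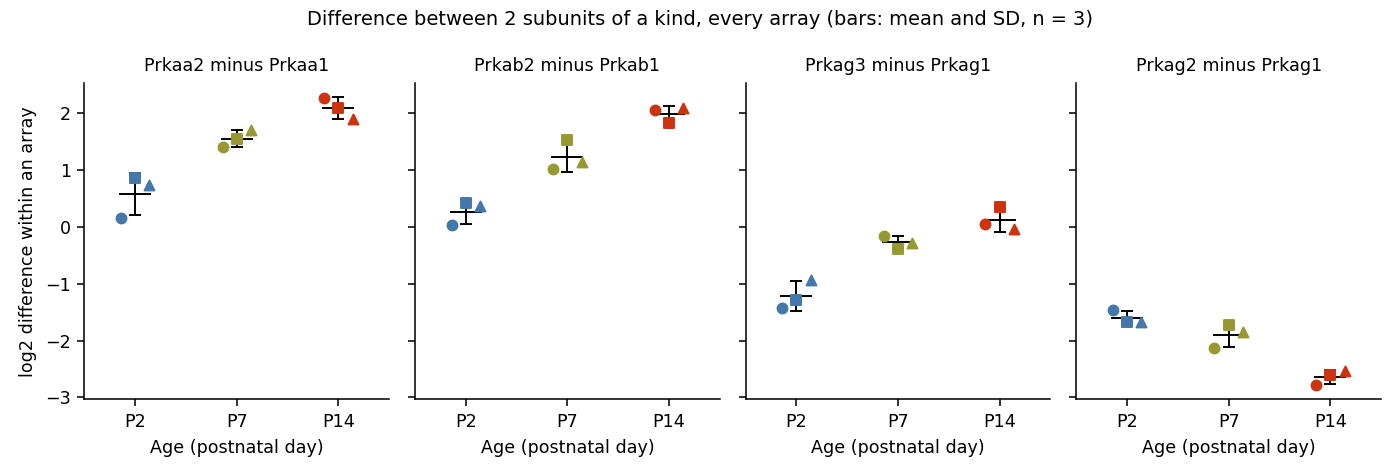
Log2 value of 1 AMPK subunit minus another of the same kind on the same array (vertical axis) at P2, P7 and P14 (horizontal axis), with circles, squares and triangles for replicates 1, 2 and 3 and the mean and SD of 3 arrays in black. The first 3 differences climb at each age and the fourth declines, most between P7 and P14.

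Within an age, the lowest array was often the same for several subunits at P2 and P7. At P2, replicate 2 was the lowest array for 6 of the 7 subunits, all but Prkaa2, and at P7 replicate 2 was the lowest for 5. Over the 13531 genes whose mean over the 9 arrays was above background, those arrays were the lowest of their age for 45.9% and 39.5%. At P14 the lowest array was replicate 1 for 4 subunits and replicate 3 for 3, beside 36.5% and 27.2% of those genes. Over the 9 arrays Prkaa2 correlated with Prkag3 at r = 0.973 and with Prkab2 at 0.965, and Prkab2 with Prkag3 at 0.960. The 9 points fall into 3 ages, so these values are a description only.

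The 3 subunits that moved together have different start regions, shown here because their transcripts rose together. The sequences are RefSeq promoters of build GRCm38.p6, from 250 bases before to 50 bases after the annotated start, written 5′ to 3′ on the gene's strand. Capitals mark E-boxes (CANNTG, the site of myogenic basic helix-loop-helix factors) and GC boxes (GGGCGG on either strand, the site of Sp factors).
Prkaa2 (chr4:105109849-105110148, minus strand): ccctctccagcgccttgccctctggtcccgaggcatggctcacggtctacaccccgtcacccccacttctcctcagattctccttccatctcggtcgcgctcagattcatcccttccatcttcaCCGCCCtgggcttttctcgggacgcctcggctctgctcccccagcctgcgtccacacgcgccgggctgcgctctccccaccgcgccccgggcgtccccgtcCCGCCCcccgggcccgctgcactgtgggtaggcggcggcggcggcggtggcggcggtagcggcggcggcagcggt
Prkab2 (chr3:97657962-97658261, plus strand): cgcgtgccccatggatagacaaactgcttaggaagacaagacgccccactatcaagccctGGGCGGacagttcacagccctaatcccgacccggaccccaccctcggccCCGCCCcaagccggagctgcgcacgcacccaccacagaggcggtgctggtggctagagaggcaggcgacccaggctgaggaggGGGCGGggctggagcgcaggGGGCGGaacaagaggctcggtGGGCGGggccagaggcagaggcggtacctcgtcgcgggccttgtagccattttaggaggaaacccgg
Prkag3 (chr1:74748906-74749205, minus strand): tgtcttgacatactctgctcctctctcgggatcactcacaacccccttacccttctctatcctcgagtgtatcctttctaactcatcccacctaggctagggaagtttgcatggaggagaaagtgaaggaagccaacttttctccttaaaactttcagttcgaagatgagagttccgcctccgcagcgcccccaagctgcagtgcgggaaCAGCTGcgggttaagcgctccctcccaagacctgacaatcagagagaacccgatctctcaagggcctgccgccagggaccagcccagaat

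The Prkaa2 and Prkab2 promoters held 2 and 5 GC boxes and no E-box, and were 72.7% and 68.0% G and C. The Prkag3 promoter held 0 GC boxes and 1 E-box, 40 bases before the start, and was 54.0% G and C. Among all 32851 promoters of the same length, 72.3% held an E-box and 35.7% a GC box, and the median G and C content was 52.7%. The search read both strands and counted overlapping matches, and the motifs did not overlap each other in these 3 sequences. Of the other subunits, the promoters of Prkaa1 and Prkab1 held no E-box, that of Prkag1 held 1, and the 3 start regions of Prkag2 held 2, 3 and 2. GC boxes numbered 5 in Prkaa1, 0 in Prkab1, 2 in Prkag1, and 2, 0 and 1 in the start regions of Prkag2. The G and C content was 82% for Prkaa1, 65.3% for Prkab1, 54.7% for Prkag1, and 69.7%, 50.3% and 79.3% for Prkag2. The MCAT motif (CATTCC) was found in 1 of the 9 subunit promoters, a start region of Prkag2, the nuclear receptor half-site AGGTCA in that same one, and the MEF2 motif in 0, against 14.7%, 16.3% and 0.557% of all promoters.

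By a fixed rule the 5 genes with the highest Pearson correlation over the 9 arrays were read for each subunit called by the F-test. For Prkaa2 these were Synm (r = 0.997), an intermediate filament protein of muscle, Coa5 (0.996), a cytochrome oxidase assembly factor, Myadml2 (0.994), Lrrc20 (0.992) and Gpd2 (0.989), the mitochondrial glycerol phosphate dehydrogenase. For Prkab2 they were Larp1b (0.994), the transcription factor gene Tcf15 (0.990), Ghitm (0.990), the ubiquitin ligase scaffold Cul3 (0.989) and the peroxisomal transporter Abcd2 (0.989). For Prkag3 they were St8sia5 (0.991), Gdap10 (0.987), the fast calsequestrin Casq1 (0.987), the glucose phosphate transporter Slc37a4 (0.986) and Adgrl4 (0.984), an endothelial receptor. The 3 sets of 5 had no gene in common. The 9 arrays fall into 3 ages, so these ranks are a description only, and the lack of overlap does not set the 3 subunits apart.

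The rest of the AMPK pathway was read from 8 lists, with 75 genes measured. The lists were chosen by role, but with earlier results of these data known. For P14 versus P2, 15 of the 75 (20%) rose and 4 (5.33%) fell by limma, beside 6.63% and 4.40% of all genes. The share over all genes counts those at background too. With only genes above background limma called 2848 of 13531, rises and falls together. That is a larger share than the 11.0% over all genes, so the excess of the pooled list calls is smaller beside it. The lists are small, so that 1 call in 11 genes lies near the share over all genes. Among the upstream kinases and their cofactors, 2 of 9 measured genes rose for P14 versus P2 and 0 fell (median log2 change 0.24, against 0.01 over all genes). Stk11, which encodes LKB1, the main kinase that activates AMPK in muscle, had a change of -0.04 ± 0.18 (SE, n = 3 each; adjusted p = 0.920), and its alternative Camkk2 one of -0.30 ± 0.16 (0.261). The 2 that rose belong to the LKB1 complex. They were the pseudokinase gene Stradb (0.62 ± 0.18, adjusted p = 0.0412) and the MO25 gene Cab39l (0.65 ± 0.18, 0.0315). Stradb kept its call in 2 and Cab39l in 4 of the 9 fits that leave out 1 array (the highest adjusted p was 0.200 for Stradb, without P14 replicate 1, and 0.115 for Cab39l, without P2 replicate 1).

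Beside 6.63% of all genes that rose and 4.40% that fell, 0 of 11 binding partners and phosphatases rose and 1 fell (median 0.13). It was Sesn1, a sestrin that links stress to AMPK and mTORC1, at -0.83 ± 0.20 (adjusted p = 0.0144; lost without P2 replicate 1 or P14 replicate 2, up to 0.0884). Of the folliculin complex, Flcn (0.13) and Fnip1 (0.34) were not called. Among 11 AMPK-related kinases, which LKB1 also activates in most cases, 1 rose and 2 fell (median 0.05). Snrk rose by 0.90 ± 0.17 (adjusted p = 0.00343). Melk, an enzyme of dividing cells, fell by 0.82 on the log2 scale (SE 0.17, adjusted p = 0.00504), and Mark1 by 0.71 (adjusted p = 0.0483). The Mark1 call held in 1 of 9 fits that leave out 1 array (up to 0.178, without P14 replicate 3).

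AMPK acts on its substrates by phosphorylation, which arrays do not measure, and the values here are of their transcripts only. In glucose and glycogen handling 3 of 7 genes rose and 0 fell (median 0.79), beside 6.63% and 4.40% of all genes. Tbc1d1, a regulator of glucose transporter traffic, averaged 5.85 ± 0.19 at P14 and 4.87 ± 0.12 at P2 (log2 change 0.98 ± 0.17, adjusted p = 0.00217). Its relative Tbc1d4 had a change of 0.08 ± 0.22 (0.871). Muscle glycogen synthase Gys1 rose by 0.95 ± 0.21 (0.0102), and Pfkfb3, which makes the activator of phosphofructokinase, by 1.06 ± 0.21 (0.00422).

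In fat and sterol metabolism 1 of 7 rose and 1 fell (median -0.22), beside 6.63% and 4.40% of all genes. Pnpla2, the triglyceride lipase ATGL, averaged 6.65 ± 0.22 at P14 and 5.62 ± 0.31 at P2 (1.03 ± 0.19, adjusted p = 0.00303). Srebf2, a regulator of sterol synthesis, fell by 0.84 (adjusted p = 0.0411), a call kept in 2 of 9 fits that leave out 1 array (up to 0.194, without P14 replicate 2). The acetyl-CoA carboxylases, the classical AMPK substrates, were at 0.69 ± 0.22 for the muscle form Acacb (adjusted p = 0.0585) and -0.47 ± 0.20 for Acaca (0.153).

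Beside 6.63% of all genes that rose and 4.40% that fell, 2 of 9 rose and 0 fell in growth and autophagy (median 0.27). They were Atg9a, a membrane protein of forming autophagosomes (1.07 ± 0.20, adjusted p = 0.00269), and Mff, a receptor for mitochondrial fission (0.86 ± 0.19, 0.00873). Ulk1 (0.41), Tsc2 (0.27) and Rptor (0.02) were not called. In transcription 1 of 11 rose and 0 fell (median 0.23), near the share over all genes. The gene that rose was Ppargc1a, a coactivator of mitochondrial genes (6.27 ± 0.26 at P14 and 5.15 ± 0.28 at P2; 1.12 ± 0.19, adjusted p = 0.00161). Hdac4 (0.32) and Hdac5 (0.22) were not called.

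Enzymes of adenine nucleotides, which set the AMP that AMPK senses, had 5 rises and 0 falls among 10 genes (median 0.56). Over all genes 6.63% rose and 4.40% fell. Ampd1, the muscle AMP deaminase, averaged 9.79 ± 0.23 at P14 and 8.42 ± 0.28 at P2 (1.37 ± 0.19, adjusted p = 0.000271). Adenosine kinase Adk rose by 1.17 ± 0.17 (0.000606) and muscle adenylosuccinate synthase Adssl1 by 1.27 ± 0.27 (0.00816). Ak1, the cytosolic adenylate kinase that makes AMP from ADP, rose by 0.74 ± 0.18 (0.0167), a call lost without P2 replicate 1 or P14 replicates 1 or 2 (up to 0.0873). Adsl rose by 0.72 ± 0.17 (0.0150), lost without P2 replicate 1 or any P14 array (up to 0.0652).

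Between P7 and P14 the pathway lists held 6 calls among the 75 genes (8%), all higher at P14, beside 1.72% of all genes. Pnpla2 averaged 6.65 at P14 and 5.65 at P7 (adjusted p = 0.0119), and the others were Tbc1d1 (0.86, 0.0167), Ppargc1a (0.86, 0.0274), Adk (0.77, 0.0335), Adsl (0.75, 0.0367) and Gys1 (0.87, 0.0483). Each lost its call when certain single arrays were dropped, with the highest adjusted p at 0.0803 for Pnpla2, 0.106 for Tbc1d1 and 0.151 for Adk (all without P14 replicate 3), 0.154 for Ppargc1a and 0.148 for Adsl (without P14 replicate 2) and 0.170 for Gys1 (without P7 replicate 2). With the mean of its probe sets Tbc1d1 had a change of 0.48 (adjusted p = 0.146). Between P2 and P7, limma called 0 genes of the 8 lists. At an unadjusted p under 0.05 there were 4 AMPK-related kinases, 4 adenine nucleotide enzymes, 1 binding partner and 1 glucose-handling gene, together 13.3% of the 75 genes, beside 12.8% of all genes.

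**Figure D4:**
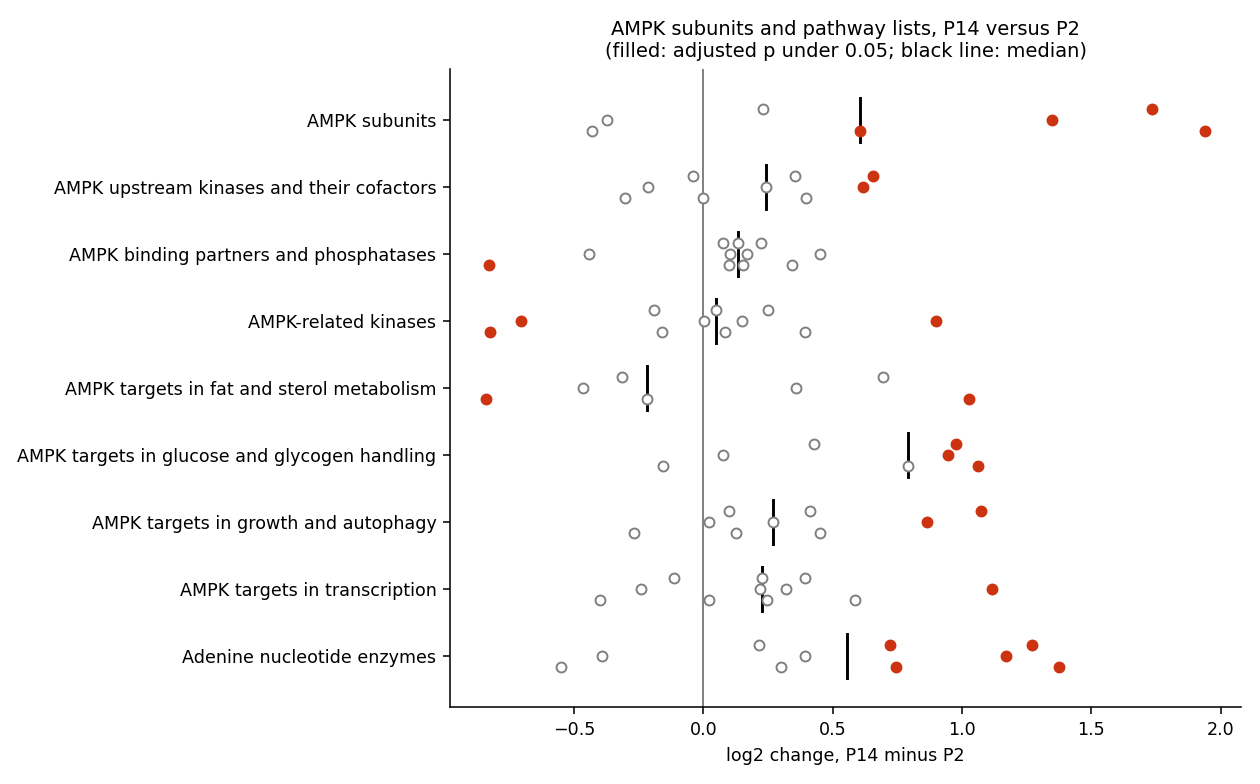
Log2 change from P2 to P14 (horizontal axis) of the AMPK subunits and of the genes of 8 pathway lists, 1 point for each gene, filled where the adjusted p was under 0.05, with the median of each list as a black line. Prkag3 and Prkaa2 lie furthest right, and the glucose and glycogen list (median 0.79) and the adenine nucleotide enzymes (0.56) are the pathway lists with the highest medians.

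Whole muscle holds several cell types, so fewer cells of a type and less RNA in each cell cannot be told apart in these values. Summed over its 15 markers, the myofibre level was 14.76 to 14.80 at P14 and 13.88 to 14.09 at P2, a mean shift of 0.77 on the log2 scale, with 7 markers higher and 2 lower by limma. The 2 that were lower are Myh3 and Myh8, the embryonic and perinatal myosins. Each summed level here adds unlogged values, so its brightest markers weigh most. The general myofibre markers Acta1 (0.17), Ttn (0.10) and Des (0.37) were not called, while Ckm was 0.98 higher (adjusted p = 0.0049). Fast-fibre markers of the list with called changes were Pvalb (4.50), Myh4 (4.28), Myh2 (3.59), Myh1 (3.34), Atp2a1 (1.32) and Tnnt3 (0.75). The fast-fibre markers Mylpf (0.51) and Tnnc2 (0.39) were not called by limma (adjusted p = 0.091 and 0.167). The changes of Prkag3 (1.94), Prkaa2 (1.74) and Prkab2 (1.35) were each larger than the summed shift, and that of Prkag1 (0.61) was smaller. All 4 were smaller than those of Pvalb, Myh1, Myh2 and Myh4, whose P2 arrays were scattered (SD 1.13 to 2.54). Those of Prkag3 and Prkaa2 were larger than those of Atp2a1, Tnnt3, Mylpf and Tnnc2. That of Prkab2 was larger than those of Tnnt3, Mylpf and Tnnc2 and about equal to that of Atp2a1. The differences between these changes were not tested. The part of the fibre types in the subunit changes was not tested.

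Markers of other cells moved too. Dividing-cell markers were lower at P14 than at P2 in 4 of 4 genes, with a summed level of 6.32 to 6.58 at P14 and 7.52 to 8.25 at P2. The fibroblast and matrix sum was 11.97 to 12.18 at P14 and 12.48 to 12.94 at P2, with 2 of 7 lower. The endothelial sum was 9.51 to 9.67 at P14 and 8.81 to 9.47 at P2, with 0 of 6 called. Pericyte and smooth muscle markers summed to 10.79 to 10.93 at P14 and 9.54 to 9.96 at P2, a mean shift of 1.15. It was the largest rise of the summed levels, with 2 of 5 markers called higher, Rgs5 (1.98) and Acta2 (0.86). Pdgfrb (0.46), Myh11 (-0.24) and Cspg4 (-0.48) were not called, and the median of the 5 was 0.46. Satellite cell and myoblast markers summed to 8.20 to 8.46 at P14 and 8.32 to 8.79 at P2, with 2 of 6 lower, and macrophage markers to 7.82 to 7.90 at P14 and 7.57 to 8.28 at P2, with 0 of 5 called. All markers of these lists had means over the 9 arrays above background, although Birc5, a dividing-cell marker, averaged 2.86 at P14, below it. The part of these cell types in the subunit changes was not tested.

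**Figure D5:**
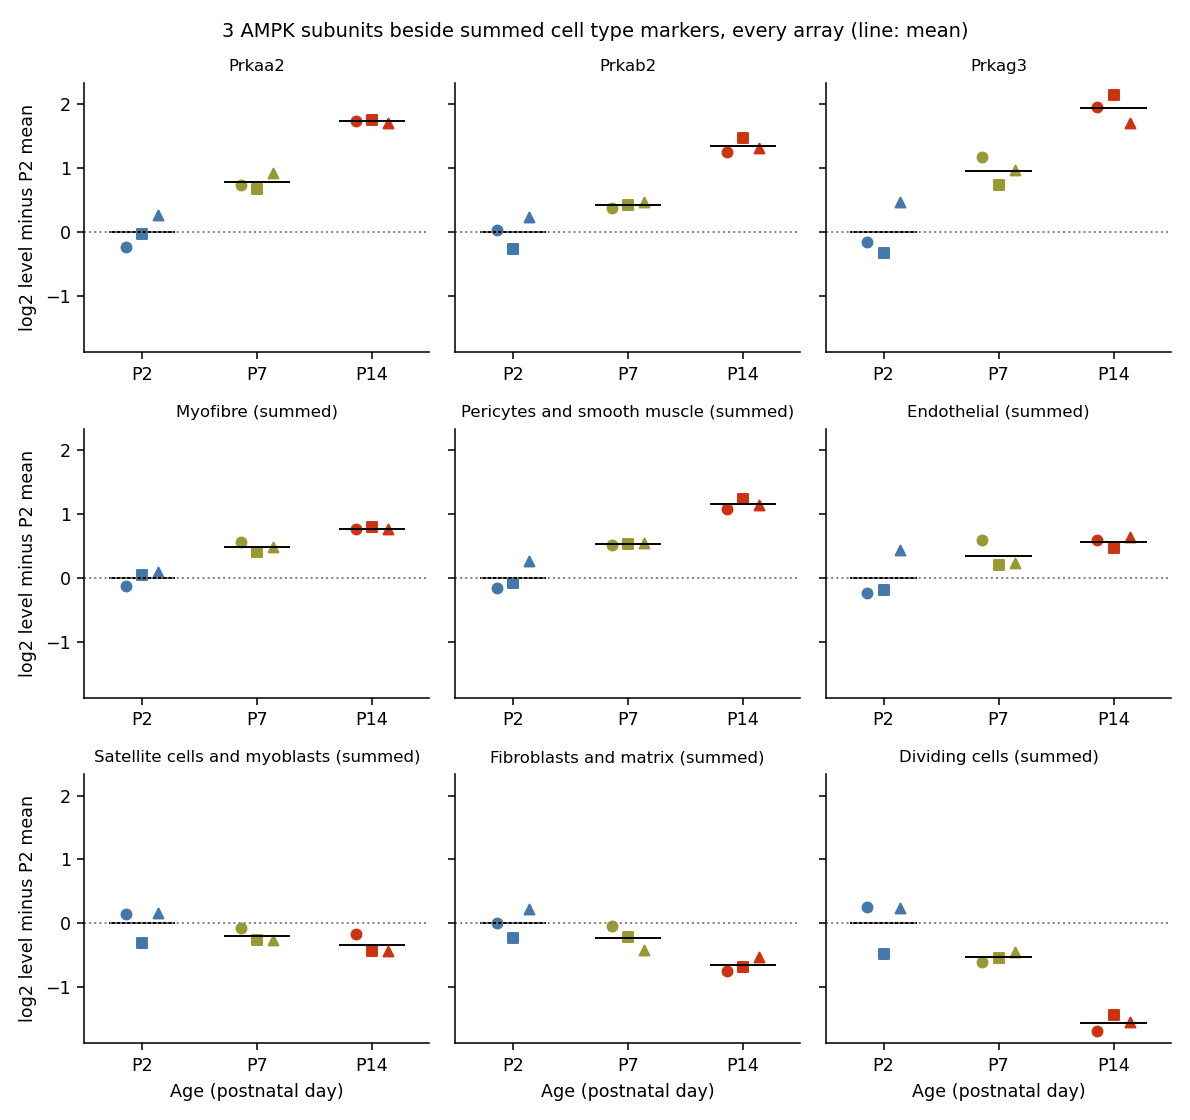
Log2 level minus the P2 mean (vertical axis) at P2, P7 and P14 (horizontal axis) for Prkaa2, Prkab2 and Prkag3 and for the summed markers of 6 cell groups, with circles, squares and triangles for replicates 1, 2 and 3 and the mean as a line. The 3 subunits reach 1.74, 1.35 and 1.94 at P14, the pericyte and smooth muscle sum 1.15, the myofibre sum 0.77, the endothelial sum 0.57, the satellite cell sum -0.34, the fibroblast sum -0.65 and the dividing-cell sum -1.56.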

How the data were processed

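The submitters extracted total RNA with Trizol and made biotinylated cRNA from 6 ug of it, per the labels' protocols. The authors' deposited table holds 1 log2 value for each of 41345 probe sets on each of 9 arrays. The submitters' processing notes name RMA and Partek without versions. The array platform, settings and genome build are not stated there or in the labels, and the log2 base is taken from RMA.

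Probe sets were named from an annotation table. It lists 23521 with 1 symbol and 1814 with several, and 16010 are unnamed here. Of the single-symbol probe sets 23328 matched RefSeq by Entrez number (GRCm38.p6, used for names). The brightest single-symbol probe set of each gene was kept, which gave 22180 genes. A further Prkag2 probe set, shared with an antisense transcript, was left out.

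limma 3.58.1 (R 4.3.3) was fitted to all genes with 1 mean per age and 1 shared spread, with two-sided tests and Benjamini-Hochberg adjustment across the 22180 genes. The fit was tested on simulated data. Isoform pairs used an exact permutation test. Nothing beyond the replicate labels says that each array is a separate animal, so p-values reflect only how these samples vary, which may be partly technical. Having 3 arrays an age limits the precision. The named genes were all 7 subunits with every array's value, up to 4 changed members of each list and pair of ages, other list members beside their counts, and the nearest genes by correlation. The 8 lists covered upstream kinases, binding partners and phosphatases, AMPK-related kinases, 4 groups of targets and adenine nucleotide enzymes; 1 gene, Adss1, was measured as Adssl1. Of the other marker lists, adipocytes had 3 of 5 genes lower at P14 than at P2, and Schwann cells (3 measured), erythroid cells (1), heart (4) and liver (3) had 0 called. The subunits and lists were chosen with earlier results of these data known. Alternatives were other normalizations, filters, probe set choices, variance models, Xist as a covariate, a replicate block and leaving out each array.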

Additional observations from a re-analysis of the deposited data

How the results depend on the processing

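From P2 to P14, Prkaa2, Prkab2 and Prkag3 were called higher in 20 of 20 alternatives each, with log2 changes of 1.62 to 1.87, 1.21 to 1.47 and 1.77 to 2.18. Several alternatives, such as the mean of a gene's probe sets, left the estimates of these subunits unchanged. Prkag1 was called in 11 of 20 (adjusted p 0.0161 to 0.127), and Prkag2 in 1. From P7 to P14, Prkaa2 was called in 20, Prkab2 in 18 and Prkag3 in 13 of 20, and Prkag1, not called in the fit reported, in 3. The number of subunits called from P7 to P14 was 1 to 3 when single arrays were left out and 2 to 4 under the other alternatives. From P2 to P7 it was 0 as reported, but 1 with quantile normalization and 1 with cyclic loess (Prkag3), 2 with only genes above background and 2 with a trended robust variance (Prkaa2 and Prkag3), and 0 to 2 without single arrays. The cause was not tested. From P2 to P14 it was 3 to 4 and for the F-test 3 to 4 over the alternatives, and 0 for the difference between the intervals. The 4 isoform pairs kept their direction and an exact p under 0.05 in every alternative run. Of 686 subunit values under these alternatives 648 stayed on their side of the threshold, 20 gained a call and 18 lost one. The sign turned in 11, none of them called: Prkag1 from P2 to P7 in 4 (to -0.11 at the lowest), and the difference between the intervals in 6 for Prkag3 and 1 for Prkag2.

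Over all genes the count of calls from P2 to P7 was 73, with a range of 6 (all probe sets) to 206 (without P2 replicate 2). From P7 to P14 it was 538, with 214 (without P14 replicate 2) to 1221 (array weights), from P2 to P14 2447 with 1373 (without P14 replicate 2) to 2848 (only genes above background), for the interval difference 43 with 1 (all probe sets) to 53, and for the F-test 1827 with 845 (without P14 replicate 2) to 2222. Deviations of same-numbered replicates from their age means correlated at -0.034 to 0.069 over 9 pairs, and those of differently numbered ones at -0.103 to 0.088. Such values cannot settle what the numbers mean, and the fit reported did not pair arrays by number. With the replicate block 0, 3 and 4 subunits were called for P7 versus P2, P14 versus P7 and P14 versus P2, and the pairs had an exact p of 0.0278, the smallest that block allows. Of the pathway genes the block ended 4 calls, those of Stradb, Cab39l and Mark1 from P2 to P14 and of Gys1 from P7 to P14.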
